A study of Mus musculus with 27 samples.

Results

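The step from 0.5 h to 1 h of lipopolysaccharide (LPS) stimulation was followed in chromatin-associated RNA of mouse bone marrow-derived macrophages (BMDMs), primary macrophages grown from bone marrow. The genes described had to reach 10 normalised read counts in 3 or more of the 6 libraries of the 2 time points, which held for 11176 of the 45070 genes in the table. The 3 libraries at LPS 1 h were compared with the 3 at LPS 0.5 h, and untreated cells and the 2 h and 4 h time points served to place each change in the course. The cells came from male wild type C57/BL6 mice aged 6 to 8 weeks, all of them were kept for 1 h with DMSO, and LPS or interleukin-4 (IL-4) was then given at 10 ng/ml. Untreated cells received DMSO alone. The whole series holds 27 libraries in 9 groups of 3 replicates, and the IL-4 libraries at 0.5 h and 1 h were used as a second stimulus over the same interval. Whether the replicates were separate cultures or animals was not stated, so p-values measure the spread between these libraries, which may be technical.

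LPS is a component of the outer membrane of Gram-negative bacteria and is sensed by TLR4. The receptor activates MAP kinases, NF-kB and, from endosomes, IRF3, and a first set of genes is transcribed without new protein synthesis. Later genes depend on proteins of the first set, on chromatin remodelling, or on interferon beta released by the cells and acting back on them through its receptor and JAK kinases. RNA bound to chromatin is enriched for transcripts still being made, introns included, so it loses a gene soon after transcription stops, while the messenger RNA in the cytoplasm can last longer.

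The sum of normalised read counts was 3571492 to 3671910 in the libraries at 0.5 h and 3729642 to 3894624 at 1 h, sums that the authors' scaling keeps from being read as sequencing depths. The tested genes were 9221 protein-coding genes, 1742 non-coding RNAs and 213 genes of other types, and 5697 of them (51.0%) overlapped another annotated gene with which they could share reads. All 8 macrophage markers were detected. Markers of T cells, NK cells, dendritic cells and mast cells summed to at most 14, 1, 13 and 9 normalised read counts in any of the 6 libraries. The 6 erythroid markers summed to 67 to 92 at 0.5 h and 20 to 32 at 1 h, nearly all of it Alas2, with both beta globin genes at 0. B cell, neutrophil and fibroblast markers reached 65, 87 and 208, and Col1a1 and S100a8 were highest in replicate 1 at both times.

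Between 0.5 h and 1 h, 6280 genes (56.2%) passed an adjusted p of 0.05 in limma, a linear model with moderated variances fitted to log2(value + 1). Of the tested genes 28.7% (3208) were higher and 27.5% (3072) lower at 1 h. At least 2-fold, 1853 genes were higher (16.6%) and 1978 lower (17.7%), and 86 and 97 passed 8-fold. The median change of all tested genes was −0.03 on the log2 scale, with rises and falls on both sides of it. The authors had scaled the libraries on invariant genes, so this median cannot show whether transcription in total rose or fell. In 6795 of the 11176 genes (60.8%) the 3 values at 1 h did not overlap the 3 at 0.5 h. Among the called genes, 37 rose from 0.5 h libraries that were all at or under 3 normalised read counts, and 59 fell to 1 h libraries that were all at or under 3. Through the 1 h libraries alone 292 genes passed the filter on low values, and 446 through the 0.5 h libraries alone. Such genes had to differ, and 702 of these 738 were called.

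The genes called at least 2-fold were divided by where they stood at 0.5 h relative to untreated cells, as a description with no test, since the 0.5 h libraries enter both values. Of 1686 tested genes that LPS had already brought at least 2-fold above untreated at 0.5 h, 349 then fell, 268 rose further and 1069 did neither. The 349 first-wave genes that fell had a median log2 level relative to untreated of 2.04 at 0.5 h, 0.39 at 1 h and −0.34 at 2 h, and 208 of them were back within 2-fold of untreated at 1 h. They held 9.15% ± 0.84 of all normalised read counts at 0.5 h and 2.99% ± 0.12 at 1 h (SD, n = 3). The 268 that rose further went from 1.85 at 0.5 h to 3.81 at 1 h and from 4.89% ± 0.47 to 12.7% ± 0.63 of the counts. At 2 h, 79 of these were already at least 2-fold below their 1 h level and 55 at least 2-fold above it.

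Of 7200 tested genes within 2-fold of untreated at 0.5 h, 859 then rose, to a median of 1.37 at 1 h. At 1 h 576 of these were at least 2-fold above untreated and 283 still within 2-fold. Of 2290 tested genes at least 2-fold below untreated at 0.5 h, 726 rose, from a median of −1.64 at 0.5 h to −0.08 at 1 h. At 1 h 617 of these were within 2-fold of untreated, so most of this group dipped and returned. The largest group by number was of genes that fell without a first wave, and it came from the largest pool. Of the 7200 genes within 2-fold of untreated at 0.5 h, 1356 fell, against 1978 (17.7%) of all 11176 tested genes. Their median was −0.10 at 0.5 h and −1.80 at 1 h, with −1.62 still at 4 h. Of the 2290 genes already at least 2-fold below untreated, 273 fell further, from a median of −1.38 to −3.03. Other settings moved some of these counts by over 1.5 times. At equal library totals 605 genes instead of 273 fell from below untreated and 168 instead of 268 rose from above it, and with median-of-ratios factors 171 fell from below. With a pseudocount of 8 in place of 1, 407 instead of 726 rose from below untreated and 147 fell from below, and with no filter on low values 534 instead of 349 fell from above. Restricted to a mean of at least 50, 204 fell from above, 711 from near and 68 from below, and 256 rose from below.

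**Figure D1:**
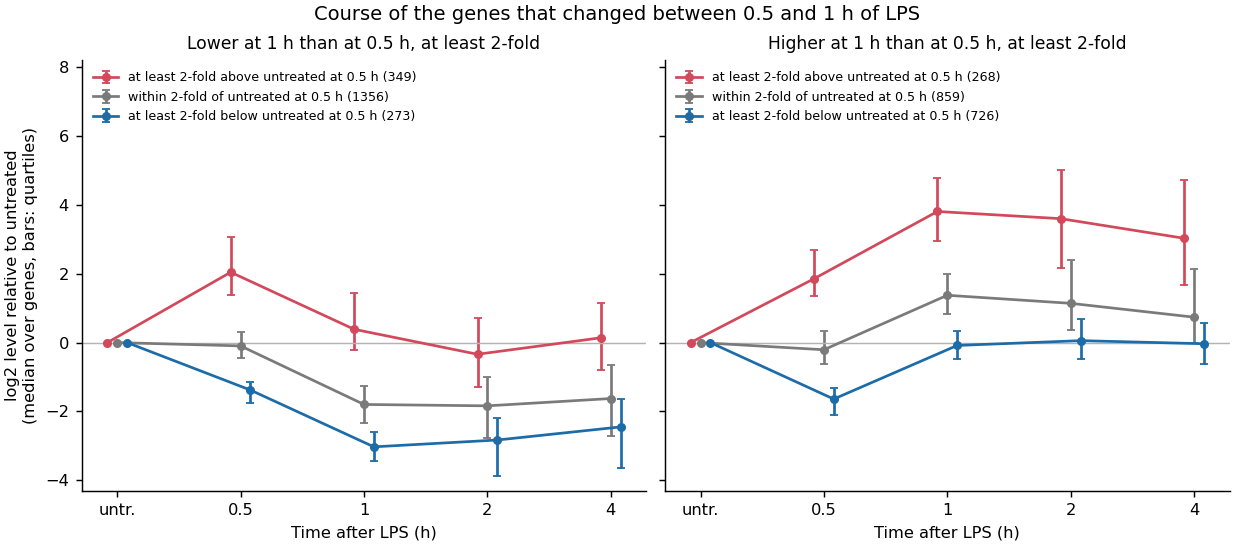
Median log2 level relative to untreated cells (y axis) against time after LPS in hours (x axis, categories) for genes called at least 2-fold lower (left) or higher (right) at 1 h than at 0.5 h, divided by their level at 0.5 h, with bars for the quartiles over genes. The red line on the left, the 349 first-wave genes that fell, comes down from 2.04 to 0.39 in the step, and the red line on the right, 268 genes, climbs from 1.85 to 3.81.

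Immediate early transcription factors were the list with the largest share of falls among the 11 examined. Of 24 tested members 14 fell (58.3%, against 27.5% of all tested genes) and 1 rose (4.2%, against 28.7%). The median log2 change was −1.07, against −0.03 for all tested genes. Egr1 (chromosome 18, 34861207 to 34864956), a zinc finger factor induced within minutes by MAP kinase signalling, stood at 291, 233 and 380 normalised read counts in replicates 1, 2 and 3 at 0.5 h and at 19, 16 and 12 at 1 h. It had been at 2, 1 and 18 in untreated cells, so all 3 libraries at 1 h were far below those at 0.5 h and overlapped the untreated range. The log2 change was −4.17 (SE 0.67, limma adjusted p 8.66e-05), the largest fall in the list. Egr3, of the same family, fell from 82, 79 and 92 to 6, 8 and 11 (−3.22, adjusted p 9.37e-06), and Egr2 from 124, 138 and 140 to 51, 57 and 64 (−1.21, adjusted p 0.00626). Egr2 was still above its untreated 2, 1 and 5 in every library at 1 h, and it overlaps the non-coding Gm32255.

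The orphan nuclear receptor gene Nr4a1 (chromosome 15, 101266846 to 101274795) fell from 463, 422 and 560 to 79, 60 and 57, a log2 change of −2.87 (SE 0.45, adjusted p 6.88e-05). Its paralog Nr4a3 was the 1 member of the list that rose, from 60, 48 and 38 to 142, 107 and 106, without overlap (1.28, adjusted p 0.00328). That call was lost without replicate 3 (adjusted p 0.0525). Of the AP-1 genes Fos, Jun and Fosb passed as lower. Fos fell from 77, 80 and 116 to 18, 18 and 12, overlapping the untreated values of 15, 19 and 45 (−2.43, SE 0.39, adjusted p 8.17e-05). Jun fell by 2.65 and Fosb by 2.50 on the log2 scale, while Junb, at 296, 309 and 422 and then 255, 252 and 245, did not pass (−0.43, adjusted p 0.208), nor did Fosl2 (−0.20) and Jund (0.35). Atf3, a related bZIP factor that restrains inflammatory genes, fell from 2751, 1490 and 1859 to 745, 420 and 394 (−1.98, SE 0.23, adjusted p 4.78e-06) and remained above its untreated 104, 100 and 113. Myc, a growth regulator, stood at 46, 77 and 86 and then at 71, 106 and 130 (0.55, adjusted p 0.208). Ier2 stood at 106, 52 and 111 and then at 54, 38 and 33, where replicate 2 at 0.5 h overlapped the 1 h value of replicate 1 (−1.04, adjusted p 0.0533). In the fit with a replicate block Ier2 passed, at 0.0322.

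The promoter of Fos is shown because the gene fell from its highest measured time point in this step. It is the RefSeq window on GRCm38.p6 from 250 bases before to 50 after the annotated start (chr12:85473640-85473939, plus strand), with a TATAAA box beginning 33 bases and a match to the kappaB consensus 214 bases before the start in capitals.
Fos: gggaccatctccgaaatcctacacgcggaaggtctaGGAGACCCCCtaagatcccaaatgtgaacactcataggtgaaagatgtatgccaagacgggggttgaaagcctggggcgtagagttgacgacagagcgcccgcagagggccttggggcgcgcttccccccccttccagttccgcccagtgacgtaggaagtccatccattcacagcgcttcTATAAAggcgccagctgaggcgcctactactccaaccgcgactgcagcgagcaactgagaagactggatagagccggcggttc
Among 8745 tested genes with such a window 7.86% held TATAAA and 5.18% the kappaB consensus on either strand, against 4 of 18 promoters (22.2%) each in the immediate early list.

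Feedback inhibitors that these pathways induce moved in both directions. Of 18 tested MAP kinase and RNA-decay regulators 7 fell (38.9%, against 27.5% of all tested genes) and 3 rose (16.7%, against 28.7%), with a median of −0.31. Dusp1, the phosphatase that inactivates p38 and JNK, stood at 1443, 1916 and 2184 at 0.5 h and 1224, 1530 and 1800 at 1 h, with overlapping groups (−0.28, adjusted p 0.509). Dusp8 fell from 109, 91 and 127 to 19, 18 and 25 (−2.34, adjusted p 0.00068). Zfp36 codes for tristetraprolin, which promotes decay of AU-rich messenger RNAs, and fell by 0.69 (adjusted p 0.00667), a call lost without replicate 2 (0.0743). Its relative Zfp36l1 fell by 1.95, from a level at 0.5 h (206, 244 and 268) close to that of untreated cells (187, 194 and 207). Dusp4 fell from 76, 83 and 109 to 50, 38 and 43 (adjusted p 0.0195). The risers were Spred1, an inhibitor of Ras signalling (0.51, adjusted p 0.000683), Spry2 and the RNase gene Zc3h12a. The calls of 3 members besides Zfp36 depended on single replicates: without replicate 3 the adjusted p was 0.211 for Dusp4, 0.167 for Spry2 and 0.179 for Zc3h12a, and without replicate 2 it was 0.062 for Dusp4 and 0.0818 for Spry2.

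Of 20 tested NF-kB genes 7 rose and 6 fell, 35% and 30% of them, near the 28.7% and 27.5% of all tested genes. Their median of 0.10 was 0.03 at equal totals and 0.16 without replicate 2 or 3. Among the IkB family genes 4 fell. Nfkbiz (chromosome 16, 55811377 to 55838641), which codes for the nuclear IkB zeta, went from 16281, 15807 and 16819 to 6957, 7138 and 7330, with a spread between replicates far smaller than the fall (−1.19, SE 0.13, adjusted p 1.52e-06). Nfkbid fell by 1.47, Nfkbib by 0.96 and Nfkbie by 0.51. Nfkbia, the classical inhibitor IkB alpha, did not pass, with 1521, 2081 and 2006 and then 1340, 1868 and 1823 (−0.16, adjusted p 0.478), and Tnfaip3, the ubiquitin-editing inhibitor A20, showed no detectable change either (−0.19, adjusted p 0.447). Of the 5 subunit genes, Nfkb1 (chromosome 3, 135584655 to 135691547) rose from 7157, 6207 and 4949 to 13855, 13025 and 12851 (1.13, SE 0.14, adjusted p 6.48e-06) and Nfkb2 rose by 0.43. Rela fell by 0.53, and Rel (0.07) and Relb (0.05, adjusted p 0.876) did not pass. Bcl3, an IkB family member that acts with p50 and p52 in the nucleus, rose by 0.98. The deubiquitinase gene Cyld rose by 0.84, from 156, 257 and 275 to 348, 411 and 443, which overlapped its untreated 359, 396 and 433. Without replicate 1 Tnfaip3 passed as lower (−0.33, adjusted p 0.0264).

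**Figure D2:**
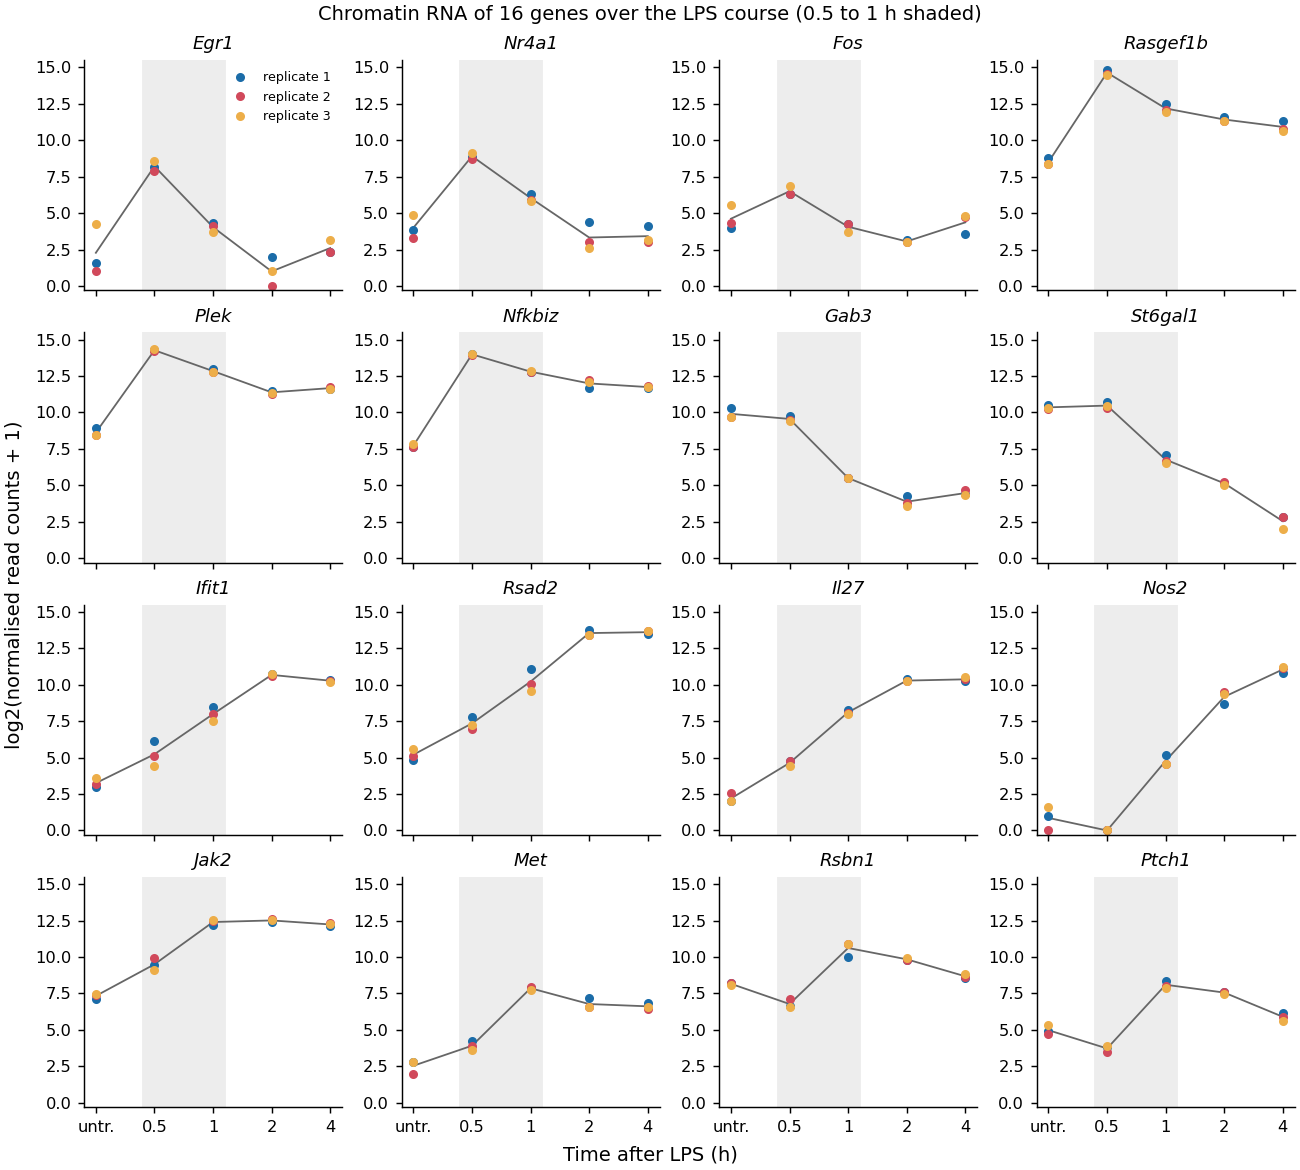
Each panel gives log2(normalised read counts + 1) of 1 gene in every library (points, coloured by replicate) with the mean as a line, in untreated cells and at the 4 times of LPS (in hours on the x axis), and the 0.5 h to 1 h step is shaded. Egr1 and Nr4a1 drop through the shaded step, Gab3 and St6gal1 leave an unstimulated level, Rsad2 and Ifit1 are on the way to a level reached at 2 h, and Rsbn1 and Ptch1 dip at 0.5 h before rising.

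Measured in normalised read counts rather than folds, the 4 largest falls were those of Rasgef1b, Neat1, Plek and Mapkapk2. Rasgef1b (chromosome 5, 99217420 to 99252927), a guanine nucleotide exchange factor gene for Ras family proteins, went from 444, 323 and 333 in untreated cells to 29441, 24336 and 23203 at 0.5 h and to 5800, 4382 and 3941 at 1 h (−2.46, SE 0.19, adjusted p 7.59e-08). Plek, which codes for the protein kinase C substrate pleckstrin, went from 19850, 18992 and 20509 to 8032, 6870 and 7152 (−1.43, adjusted p 3.7e-07). The non-coding RNA Neat1, the scaffold of nuclear paraspeckles, fell by 1.34 from 34123, 17516 and 19177 to 10566, 8414 and 8022, close to its untreated 9445, 6855 and 7284. Mapkapk2, the kinase gene downstream of p38, fell by 1.07 (adjusted p 0.00359) and stood at 13363, 8900 and 8168 at 1 h, above its untreated 761, 560 and 640. Replicate 1 was the highest of the Mapkapk2 libraries at both times, and without replicate 3 the adjusted p was 0.0502.

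The 8 steepest falls among protein-coding genes that averaged at least 50 normalised read counts at either time were of both kinds. Of these, 5 were of genes that did not stand 2-fold above untreated at 0.5 h, and 3 were of genes that did. Among all 1978 genes at least 2-fold lower, 349 stood 2-fold above untreated at 0.5 h. Gab3 (chromosome X, 74988545 to 75084905), an adaptor acting downstream of the CSF1 receptor, stood at 1263, 828 and 843 in untreated cells, 877, 700 and 696 at 0.5 h and 44, 45 and 44 at 1 h. Its log2 change was −4.06 (SE 0.20, adjusted p 1.61e-09), and by 2 h it was at 18, 13 and 11. St6gal1 (chromosome 16, 23224740 to 23360350), which codes for a sialyltransferase, held its level at 0.5 h with 1659, 1241 and 1394 and stood at 136, 101 and 91 at 1 h (−3.71, SE 0.21, adjusted p 5.48e-09). It was at 6, 6 and 3 at 4 h, below every library at 1 h. The organic anion transporter gene Slco2b1 stood below its untreated 419, 309 and 306 already at 0.5 h and went from 156, 127 and 181 to 7, 7 and 12 (−4.03, adjusted p 8.97e-08). Angptl1, a secreted angiopoietin-like factor, went from 54, 47 and 50 to 1, 2 and 2 and was at least 16.8-fold lower (adjusted p 1.89e-08). Gab3, St6gal1, Slco2b1 and Angptl1 each overlap a gene on the other strand, and the tested partners fell too: that of Gab3 by 3.67, of Slco2b1 by 3.53 and Ralgps2, at Angptl1, by 2.58. Ica1l, which overlaps no other gene, fell from 85, 76 and 56 to 8, 4 and 2 (−3.82, adjusted p 4.96e-07), after untreated values of 30, 21 and 21. Nt5dc2 fell by 3.89 from 337, 165 and 139 and overlaps Stab1, which fell by 0.96.

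The 8 largest rises among protein-coding genes that averaged at least 50 normalised read counts at 0.5 h or 1 h were those of Plagl1, Adamts4, Ptch1, Tspan3, Il1r1, Slc13a3, Gypc and Met. Ptch1 (chromosome 13, 63508328 to 63573460), the Hedgehog receptor, stood at 29, 25 and 39 in untreated cells, 13, 10 and 14 at 0.5 h and 323, 263 and 238 by 1 h. All libraries at 1 h were far above both earlier groups (4.37, SE 0.20, adjusted p 1.15e-09), and the level was down to 72, 58 and 48 by 4 h. Adamts4, a secreted protease that cleaves aggrecan, rose from 9, 4 and 6 to 159, 152 and 182 (4.55, adjusted p 1.13e-08) and Tspan3, a tetraspanin, from 15, 10 and 7 to 295, 194 and 192 (4.32, adjusted p 4.95e-07). The imprinted zinc finger gene Plagl1 rose from 8, 2 and 3 to 158, 124 and 114 (4.79, SE 0.49), together with Hymai, which overlaps it on the same strand (4.05). Il1r1 (chromosome 1, 40225080 to 40316177), the signalling receptor for interleukin-1, went from 4, 5 and 10 to 128, 113 and 156 and was back at 9, 5 and 17 at 2 h (step 4.26, SE 0.51, adjusted p 5.65e-06). Kcnn4, a calcium-activated potassium channel gene, also peaked at 1 h, with 20, 22 and 12, then 292, 223 and 266, then 139, 63 and 74 (3.82). Slc13a3, a dicarboxylate transporter gene, rose by 3.96 and Gypc, the red cell and leukocyte membrane protein glycophorin C, by 3.95. Slc13a3 overlaps Gm14437, which rose by 4.23.

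Rsbn1 and Vopp1 were the other large rises from below the unstimulated level. Rsbn1 (chromosome 3, 103914120 to 103966636) went from 295, 290 and 272 in untreated cells down to 98, 140 and 93 at 0.5 h and up to 1043, 1945 and 1911 at 1 h (3.84, SE 0.20, adjusted p 3.17e-09), replicate 1 being the lowest. Vopp1 went from 69, 76 and 65 to 21, 24 and 33 and then to 380, 357 and 312 (3.72). Both genes were therefore above untreated at 1 h, unlike most of the 726 genes of this division.

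The 4 largest rises in normalised read counts were those of Dock10, Mitf, Cd44 and Ptprj, all above untreated already at 0.5 h. Dock10 (257.5 kb), a guanine nucleotide exchange factor gene, went from 8360, 9852 and 8488 to 21683, 24056 and 23667 (1.38, SE 0.10, adjusted p 5.66e-08). Mitf (214 kb), a transcription factor of the macrophage and osteoclast lineages, rose by 1.18 to 31690, 23058 and 21868. Cd44, the hyaluronan receptor, rose by 1.20 to 21847, 25655 and 26348, and Ptprj, a receptor tyrosine phosphatase gene, by 1.07. In Mitf and Ptprj replicate 1 was the highest library at both times. Cd44 and Dock10 were less than their 1 h values by 2 h, at 7427, 5054 and 5972 and at 9880, 9813 and 10118.

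Of 19 tested cytokine genes 9 were higher (47.4%, against 28.7% of all tested genes), 1 was lower (5.3%, against 27.5%) and 9 did not pass. The median was 1.04, and 0.56 among members with a mean of at least 50. Il27 (chromosome 7, 126589009 to 126595022), the p28 subunit of interleukin-27, rose from 26, 26 and 20 to 305, 266 and 259 (3.48, SE 0.17, adjusted p 1.38e-09). It overlaps Apobr, which rose by 2.63. Il12b, the p40 subunit shared by interleukins 12 and 23, rose from 115, 118 and 107 to 663, 535 and 451 (2.25, adjusted p 1.72e-07) and was at 175, 164 and 189 by 2 h. Il6 rose from 29, 20 and 14 to 120, 72 and 72 (2.03, SE 0.30, adjusted p 3.98e-05) and stood at 209, 199 and 210 at 2 h, above every library at 1 h. Its antisense partner A230098N10Rik rose by 1.89. The T cell costimulators of the TNF family moved both ways, with rises of 2.90 in Tnfsf4 (OX40 ligand) and 2.80 in Tnfsf15 and a fall of 1.09 in Tnfsf9 (4-1BB ligand), from 2418, 2722 and 2870 to 1223, 1133 and 1410.

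Several first-wave cytokine genes did not pass in this step. Tnf stood at 1881, 2527 and 2027 at 0.5 h and 1685, 1697 and 1538 at 1 h, lower without overlap but short of the threshold (−0.38, adjusted p 0.12, and 0.0441 when the replicate number was blocked). Without replicate 1 it passed as well (−0.49, adjusted p 0.00175). Il1b stood at 3991, 4997 and 4151 and then at 3663, 4173 and 4035 (−0.14, adjusted p 0.721), and the anti-inflammatory Il10 at 177, 152 and 183 and then at 179, 188 and 224 (0.20, adjusted p 0.503). Ifnb1, interferon beta, was at 0 in all untreated libraries, at 10, 2 and 3 at 0.5 h, at 17, 16 and 5 at 1 h and at 2, 1 and 0 at 2 h. The rise in the step did not pass (1.27, SE 0.56, adjusted p 0.0664) and did with the block (0.0433), and replicate 3 at 1 h lay within the range of the 0.5 h libraries.

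Chemokine genes moved in both directions, with 7 of 16 higher (43.8%, against 28.7% of all tested genes) and 2 lower (12.5%, against 27.5%). The median was 0.34, with 0.16 among members with a mean of at least 50 and 0.21 with no filter. Ccl5 (chromosome 11, 83525778 to 83530518), which attracts T cells and monocytes, rose from 468, 359 and 232 to 2367, 2127 and 2065 (2.68, SE 0.30, adjusted p 2.85e-06). Gm32650 on the other strand rose by 2.52. Ccl22, a ligand of CCR4, rose from 3, 10 and 8 to 40, 53 and 49 (2.71). The neutrophil chemokine genes Cxcl2 and Cxcl3 lie in one cluster on chromosome 5 and went opposite ways: Cxcl2 fell from 817, 1017 and 1068 to 434, 437 and 429 (−1.15, adjusted p 0.000524), while Cxcl3 was at 0, 0 and 1 and then at 12, 13 and 19, at least 4.89-fold higher (adjusted p 1.7e-05). They are similar in sequence, so their assignment of reads is uncertain. Cxcl16 fell by 0.36, a call lost without replicate 2 (adjusted p 0.116) or 3 (0.107). Cxcl10, an interferon-inducible chemokine, did not pass (563, 496 and 518, then 617, 585 and 559, adjusted p 0.379).

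Interferon-responsive genes were the list with the most uniform direction. Of 34 tested, 30 rose (88.2%, against 28.7% of all tested genes) and none fell (against 27.5%). The median was 1.52, with an SD of 0.37 between the medians of the 3 replicates. The 4 that did not pass were Isg20, Oas2, Slfn5 and Ifi44. Rsad2 (chromosome 12, 26442743 to 26456452), the antiviral enzyme viperin, went from 28, 34 and 48 in untreated cells to 224, 125 and 152 at 0.5 h, then to 2148, 1036 and 757 at the end of the step, and by 2 h to 13727, 11157 and 11164. The step was 2.87 (SE 0.31, adjusted p 1.73e-06), and replicate 1 was the highest at both times. Mx2, a dynamin-like antiviral GTPase, rose from 289, 174 and 218 to 2643, 1466 and 1130 (2.87, adjusted p 2.58e-07). Ifit1, which binds viral RNA ends, rose from 71, 34 and 20 to 349, 257 and 180 (2.76, SE 0.33, adjusted p 5.74e-06), again with replicate 1 the highest at both times. Ifih1, the RNA sensor MDA5, had a high level already at 0.5 h and rose by 2.11, from 3353, 1985 and 1352 to 9702, 8746 and 8495. Irf7, a transcription factor of interferon genes, rose by 0.66 (adjusted p 0.0324). Ifit3 and Ifit3b, near copies of each other, were at 0 in all 6 libraries, and reads with several hits had been removed by the authors.

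The promoters of Ifit1, Rsad2 and Il6 are shown because these genes rose together in the step. Capitals mark, on either strand, the ISRE core (the interferon-stimulated response element, searched as GAAA, any 2 bases and GAAA), the kappaB consensus, the AP-1 site TGANTCA and TATAAA, in RefSeq windows of 300 bases on GRCm38.p6 (chr19:34640639-34640938, plus strand, chr12:26456403-26456702, minus strand, and chr5:30012864-30013163, plus strand).
Ifit1: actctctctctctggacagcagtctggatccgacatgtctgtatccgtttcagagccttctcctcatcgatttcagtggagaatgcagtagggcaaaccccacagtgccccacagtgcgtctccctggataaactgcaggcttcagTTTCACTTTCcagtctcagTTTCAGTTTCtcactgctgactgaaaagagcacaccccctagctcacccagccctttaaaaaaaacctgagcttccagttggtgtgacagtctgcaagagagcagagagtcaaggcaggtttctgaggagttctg
Rsad2: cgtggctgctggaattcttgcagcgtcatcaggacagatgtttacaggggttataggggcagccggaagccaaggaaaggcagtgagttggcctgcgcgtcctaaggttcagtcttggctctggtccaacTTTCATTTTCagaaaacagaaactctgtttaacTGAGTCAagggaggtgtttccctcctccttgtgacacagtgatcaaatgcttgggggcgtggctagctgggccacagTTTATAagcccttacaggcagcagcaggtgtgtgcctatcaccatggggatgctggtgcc
Il6: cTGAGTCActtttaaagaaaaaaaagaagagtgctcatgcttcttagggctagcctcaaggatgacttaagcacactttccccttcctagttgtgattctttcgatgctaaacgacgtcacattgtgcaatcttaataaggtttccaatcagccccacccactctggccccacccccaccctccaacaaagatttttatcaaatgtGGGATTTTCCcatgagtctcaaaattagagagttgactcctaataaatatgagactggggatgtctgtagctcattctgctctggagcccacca
Ifit1 has ISRE cores beginning 104 and 85 bases before the start. Rsad2 has 1 at 120 bases, an AP-1 site at 87 and TATAAA at 10, and Il6 has the kappaB consensus at 44 and an AP-1 site at 249. The ISRE core was found in 14 of the 25 interferon-list promoters that had a window (56.0%), against 3.29% of all 8745. An AP-1 site was in 12.3% of the promoters of first-wave genes that rose further, against 5.52% of all, and in 6.72% of those that fell. The CpG content, as observed over expected, had a median of 0.31 in the interferon list, 0.54 in first-wave genes that rose further, 0.63 in those that fell and 0.75 over all. These are counts of letters in a window and say nothing of binding.

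Of 27 tested later LPS effector genes 16 were higher (59.3%, against 28.7% of all tested genes). Another 5 were lower (18.5%, against 27.5%), and the median was 0.80. The list as a whole was already raised before this step. Its sum was 1431 to 1795 normalised read counts in untreated libraries, 18851 to 22045 at 0.5 h and 29223 to 31515 at 1 h. Nos2 (chromosome 11, 78920787 to 78960226), the inducible nitric oxide synthase, was at 0 in all 3 libraries at 0.5 h and at 35, 23 and 23 at 1 h, at least 9-fold higher (adjusted p 2.74e-08). Its later values were higher in every library, with 413, 719 and 643 normalised read counts at 2 h and then 1820, 2232 and 2357. Slc7a2, which brings in the arginine that Nos2 uses, rose from 38, 45 and 32 to 517, 637 and 612 (3.91, SE 0.14, adjusted p 4.14e-10). Acod1, the enzyme that makes itaconate, rose by 1.49 from 1841, 2249 and 1542 to 4717, 5378 and 5553. It overlaps Gm41235, which rose by 0.92. Hdc, histidine decarboxylase, rose by 2.75 and the transcription factor gene Batf by 1.91. Irf8, also a transcription factor gene, rose by 2.57 from 63, 37 and 45 to 489, 207 and 227. It had been at 340, 254 and 261 in untreated cells, so it dipped at 0.5 h and its 1 h values overlapped the untreated range. Marco, a scavenger receptor, stood at 11, 0 and 5 and then at 90, 18 and 22 (3.04, adjusted p 0.0086), with replicate 1 far above the others, and the call was lost without replicate 2 (0.0516). Irf1, an interferon response factor gene induced at once by LPS, fell from 1303, 742 and 862 to 676, 385 and 280 (−1.17, adjusted p 0.0024) and was back at 1725, 1413 and 1439 at 2 h. Ptgs2, which codes for cyclooxygenase-2, did not pass (0.06, adjusted p 0.9), and at equal totals its sign turned (−0.015). Of the other genes that fell, Icam1 fell by 0.42 and Sod2 by 0.54, and the calls of Clec4e and Arg2 were lost without replicate 2 (adjusted p 0.219 and 0.131) or 3 (0.0799 and 0.0544).

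**Figure D3:**
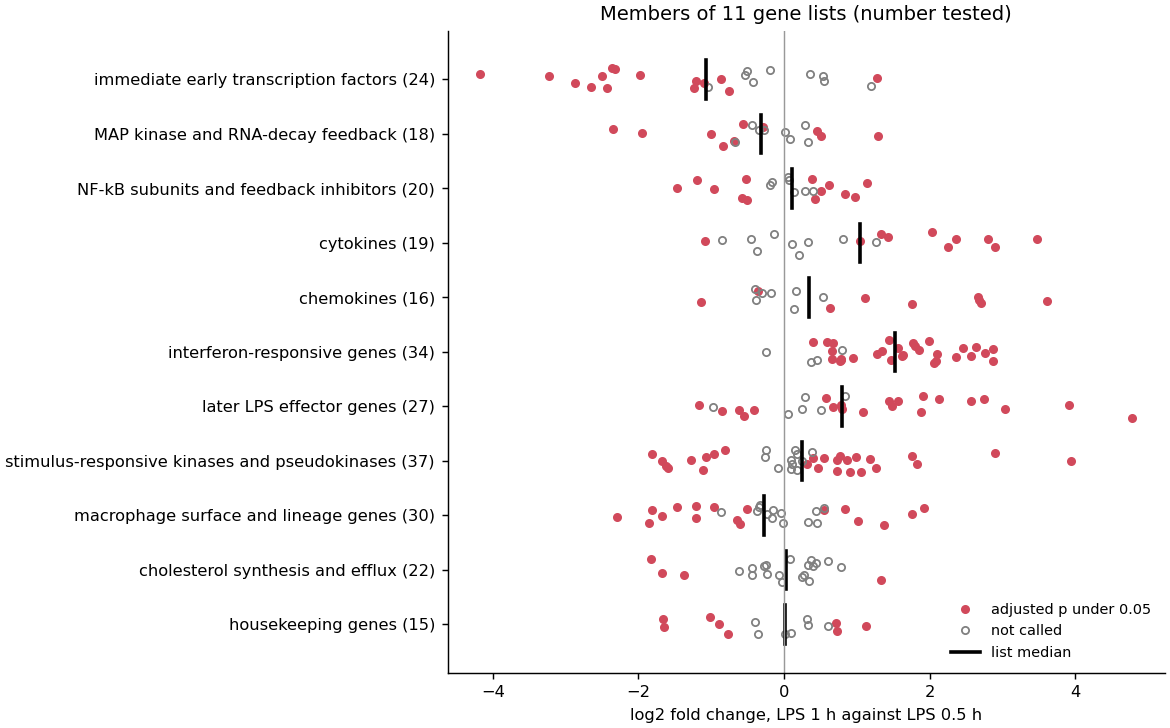
Log2 fold change from 0.5 h to 1 h of LPS (x axis) for each tested member of 11 gene lists (y axis, number tested in brackets), filled where the adjusted p was under 0.05 and open where not, with the list median as a bar. Immediate early factors lie mostly to the left (14 of 24 lower), interferon-responsive genes to the right (30 of 34 higher), and NF-kB genes on both sides.

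Kinases were the protein class that the study set out to inhibit, and their genes moved both ways, with 17 of 37 tested members higher (45.9%, against 28.7% of all tested genes) and 9 lower (24.3%, against 27.5%), and a median of 0.24. Met (chromosome 6, 17463957 to 17573980), the receptor for hepatocyte growth factor, rose from 18, 14 and 11 to 232, 250 and 212 (3.94, SE 0.26, adjusted p 1.71e-08). Jak2 (chromosome 19, 29251803 to 29313095), which carries cytokine receptor signals, rose from 698, 960 and 562 to 4717, 5554 and 6020 (2.90, SE 0.17, adjusted p 5.2e-09), and was at 4437, 5115 and 4901 at 4 h. Flt1, a VEGF receptor, rose by 1.82 from low values. Among the falls, Mertk, a receptor for apoptotic cells, went from 2513, 1943 and 1843 to 704, 654 and 597 (−1.68, adjusted p 2.93e-05) and was back at 2219, 1271 and 1277 at 2 h. Csf1r, the receptor for the macrophage growth factor CSF1, went from 3054, 3149 and 3505 to 753, 997 and 1018 (−1.82, SE 0.13, adjusted p 2.64e-08), and at 4 h it was at 522, 627 and 566, below its untreated 2052, 1814 and 2048. The polo-like kinase gene Plk3 fell by 1.62, a call lost without replicate 2 (adjusted p 0.0548).

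Of 30 tested macrophage surface and lineage genes 11 fell (36.7%, against 27.5% of all tested genes) and 6 rose (20.0%, against 28.7%), with a median of −0.28. Mrc1, the mannose receptor, fell from 2511, 1959 and 2403 to 606, 396 and 418 (−2.29, SE 0.19, adjusted p 1.91e-07). Cd68 fell by 1.47, Itgam by 1.22 and Lyz2 by 1.21, while Adgre1, the F4/80 antigen, rose by 0.83 and Spi1, the lineage factor PU.1, by 0.54. Fcer1g, the signalling chain of Fc receptors, rose by 1.76 from 115, 126 and 114 to 409, 415 and 383. Cebpd rose by 1.92 from 8, 7 and 7 to 28, 29 and 35. In a bulk sample fewer cells of a type and less RNA per cell cannot be told apart. Of the 8 macrophage markers 5 fell (62.5%, against 27.5% of all tested genes) and 3 rose (37.5%, against 28.7%). The calls of Ccr2 and Itgax were lost without replicate 2 (adjusted p 0.0963 and 0.116), and that of Itgax also without replicate 3 (0.225).

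Cholesterol and housekeeping genes served as contrasts. Of 22 tested cholesterol genes 18 did not pass, Ch25h rose (1.33) and Insig1, Stard4 and Lss fell (−1.38, −1.68 and −1.83), with a median of 0.03. The shares were 4.5% higher and 13.6% lower, against 28.7% and 27.5% of all tested genes. Without replicate 2 Ch25h (adjusted p 0.0657) and Lss (0.059) no longer passed. Of 15 housekeeping genes 5 fell (33.3%, against 27.5% of all tested genes) and 3 rose (20.0%, against 28.7%). The other 7 did not pass, and the median of 0.02 was −0.19 among members with a mean of at least 50. Actb stood at 434, 547 and 655 and then at 502, 548 and 587 (0.02, adjusted p 0.939), whereas Hprt fell by 1.01 and Gusb by 1.65 and Pgk1 rose by 1.12. The calls of Gapdh and Tbp (0.73 and 0.72) were lost without replicate 2 (adjusted p 0.121 and 0.24) and without replicate 3 (0.125 and 0.0852).

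Of 1742 tested non-coding RNAs 521 were lower (29.9%, against 27.5% of all tested genes) and 332 higher (19.1%, against 28.7%). The largest changes among genes that are not protein-coding lay within or beside protein-coding genes. Gm52859 and Gm38688 both overlap Tbxas1, the thromboxane synthase gene, on the other strand. Gm52859 was at least 17.6-fold lower and Gm38688 fell by 4.02, while Tbxas1 fell by 1.25. Gm34417 fell by 3.74 inside Tbc1d4, which fell by 1.83. On the rising side 8030431J09Rik, within Abtb2, went from 242, 284 and 218 to 2608, 2316 and 2121 (3.24), and Abtb2 rose by 3.16. LOC108167751 rose by 3.26 and Capn2, which it overlaps, by 3.05. Gm40760 rose by 3.37, from 6, 4 and 4 to 69, 54 and 49, and was at 0 in all libraries at 2 h. Strand use in the counting is not given in the sources used here, so a gene and its overlapping partner may hold the same reads. This touches 45 of the 110 genes named by rule, among them Met, Nfkb1, Csf1r, Mrc1, Mitf, Cd44, Ptprj, Rsbn1, Mapkapk2, Tnfsf9, Tnfsf15, Cxcl16, Dusp8 and Bcl3 beside those marked above. Of 35 pairs of a called gene and a tested partner, the partner passed in the same direction in 30, as with Gm46827 at Nfkb1 (2.95) and Gm52352 at Csf1r (−2.42), and did not pass in 3. It passed in the opposite direction in 2, Spidr at Cebpd (−1.08, adjusted p 4.61e-06) and Vti1b at Arg2 (0.55, adjusted p 0.00599).

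The calls differed with gene length. Of 1498 tested genes that span over 100 kb, 46.5% were lower and 17.4% higher at 1 h, with a median log2 change of −0.45 (the medians of the 3 replicates were −0.50 to −0.42). In genes under 10 kb the median was 0.06 and 20.1% were lower. Most of the long genes stood within 2-fold of untreated at 0.5 h, and 51.1% of these 1287 were lower. Among the genes that LPS had already raised at 0.5 h the order was the other way round: the median was −0.31 under 10 kb, −0.27 from 10 to 30 kb, −0.01 from 30 to 100 kb and 0.34 over 100 kb, and 42.2% of those over 100 kb were called higher. First-wave genes that fell spanned a median of 17.0 kb, and 18 of the 349 were over 100 kb, against 51 of the 268 that rose further. The 1356 genes that fell from an unstimulated level had a median span of 46.1 kb. These are descriptions over genes, with no test.

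**Figure D4:**
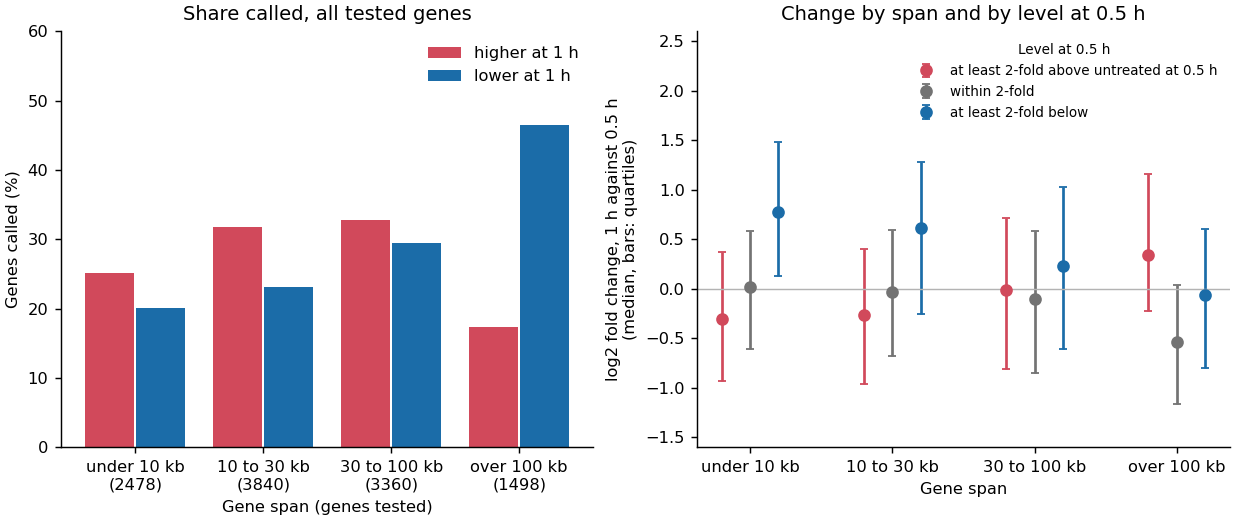
Left, percent of tested genes called higher (red) or lower (blue) at 1 h than at 0.5 h of LPS, by gene span. Right, median log2 fold change with quartile bars by span, for genes at least 2-fold above, within 2-fold of, or at least 2-fold below untreated at 0.5 h. Genes over 100 kb are lower in 46.5% and higher in 17.4% of cases, but long genes already raised at 0.5 h have a median of 0.34.

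Whether the changes were particular to LPS was examined against the same interval after IL-4, a comparison in which the 4 groups share no library. In 1 fit of all 27 libraries 4604 genes (41.2%) differed between the 2 steps, 2372 with the LPS step above that of IL-4 and 2232 below. The IL-4 step itself passed in 674 genes, and its median size was 0.21 against 0.72 for LPS on the log2 scale. Without replicate 2 the 4604 became 2814 and without replicate 3 they became 2751.

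Of 4 early genes set beside their IL-4 step, Nfkbiz and Atf3 passed as lower there and Egr1 and Fos did not. Egr1 stood at 12, 4 and 11 at 0.5 h and at 6, 1 and 2 at 1 h of IL-4, a log2 change of −1.41 that did not pass (adjusted p 0.268), and its LPS step was lower by a further 2.77 (adjusted p 0.021). Fos, at 10, 4 and 10 and then 5, 2 and 3, changed by −1.02 after IL-4 (adjusted p 0.188) and Atf3 by −1.01 (adjusted p 0.0498), and the difference from the LPS step missed the threshold in both (adjusted p 0.0633 and 0.076). Nfkbiz went from 109, 95 and 100 to 62, 40 and 47 after IL-4 (−1.03, adjusted p 0.000322) and changed by −1.19 after LPS, with an adjusted p of 0.635 for the difference. The courses were unlike, with 199, 202 and 233 in untreated cells. Nfkbiz lay below these values at both IL-4 times and far above them at both LPS times. St6gal1 changed by 0.32 after IL-4 (adjusted p 0.351) and its step differed by −4.03 (adjusted p 4.55e-11). Angptl1 did fall after IL-4 (−2.53, adjusted p 7.87e-07), as did Gab3 (−0.999, adjusted p 0.000871) and Slco2b1 (−1.05, adjusted p 0.0246). Their LPS steps were lower still, differing by −1.76, −3.06 and −2.98. Tmem204, another steep fall without a first wave, did not pass after IL-4 (−0.87, adjusted p 0.132). Rasgef1b and Plek passed as lower after IL-4 (−1.55 and −0.86), while Neat1 and Mapkapk2 did not pass. Slc7a2 rose more after LPS, by 2.73 (adjusted p 6.87e-10), over a change of 1.18 in IL-4. The step of Jak2 differed by 2.16 (adjusted p 2.18e-07) and that of Il27 by 3.67 (adjusted p 1.4e-08). Of the interferon-responsive genes 25 of 34 rose more after LPS than after IL-4, against 2372 of all 11176 tested genes with the LPS step above. Of the immediate early factors 8 of 24 fell more and 1 did the opposite, against 2232 of all 11176 with the LPS step below. Flt1 changed by 1.82 after LPS and by 1.56 after IL-4, a difference with an SE of 0.37 that did not pass (adjusted p 0.613).

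**Figure D5:**
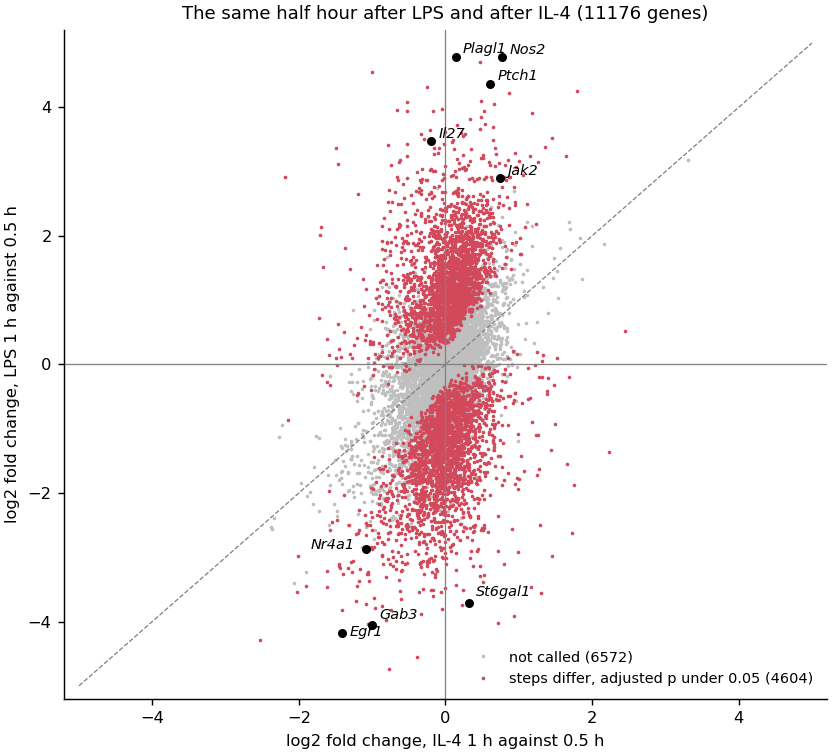
Log2 fold change from 0.5 h to 1 h after LPS (y axis) against the same after IL-4 (x axis) for 11176 genes, red where the 2 steps differ at an adjusted p under 0.05 (4604 genes), with equal steps on the dashed line. The cloud is tall and narrow, since the median step size was 0.72 after LPS and 0.21 after IL-4.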

How the data were processed

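Chromatin-associated RNA was sequenced single-end by the authors from libraries primed with random hexamers. Reads were mapped to mm10 with TopHat2 2.1.1, and multi-mapping and blacklisted reads were removed (bedtools 2.29.2, per the submitters' processing notes and the study's methods). Reads were counted per gene over the RefSeq annotation of GRCm38.p6, and libraries were scaled on invariant genes. What the authors deposited are the scaled read counts, rounded to integers, and they were handled here as a score rather than as raw counts, so the number of reads behind each library is unknown. Strand use in counting was not given in the sources used here. Coordinates are those of the table.

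Genes that reached 10 normalised read counts in 3 or more of the 6 libraries were tested on log2(value + 1) with limma 3.58.1 (R 4.3.3, mean-variance trend, Benjamini-Hochberg over 11176 genes). Folds on this scale are understated for low genes. The 15 libraries of the LPS course entered 1 fit, and the comparison with IL-4 used all 27. A design for raw counts was not used. Some members of the lists are not reported here by name. The study's impulse model was not run. Where all libraries of a group were at or under 3, the fold is a bound against 3. The fits were tested on simulated data.

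The members, the gene lists (from general knowledge), the tests and the alternatives were chosen with earlier results of these data known. Named genes were 27 fixed genes, the 8 largest rises and falls among protein-coding and 3 among other genes, the 4 largest in normalised read counts, up to 3 per list and direction and 4 per division, with an adjusted p under 0.05 and, for the ranked genes by fold and per division, a mean of at least 50 at either time point and no overlap between the values of the groups. Other list members are named to complete a list's counts and were chosen after their values were seen. The alternatives were other pseudocounts (8 and 0.5), filters, scalings, libraries in the fit, a replicate block, left-out or averaged replicates and no trend.

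Replicate numbers come from the sample labels. Deviations from the group means of same-numbered libraries correlated at 0.61, 0.28 and 0.37 over genes (replicates 1, 2 and 3), all over 0.1. Replicate 2 at 0.5 h correlated at 0.35 with replicate 3 at 1 h, and replicate 3 at 0.5 h at 0.33 with replicate 2 at 1 h. The values therefore set replicate 1 apart but do not settle the pairing of replicates 2 and 3. The numbers were used as pairs only in the fit with a replicate block, not in the main fit. Replicates 2 and 3 lay closer to each other (SD of their log2 ratio 0.18 at 0.5 h and 0.11 at 1 h over 732 genes) than replicates 1 and 2 (0.42 and 0.39). Replicates 2 and 3 differed by more than counting noise when the scaled values were treated as counts. With depth unknown, that cannot show whether they are independent, and they were kept as separate libraries.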

Additional observations from a re-analysis of the deposited data

Results flagged for a closer look

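The change between 0.5 h and 1 h differed between LPS and IL-4 in 4604 of 11176 genes, by a test of the difference of the 2 steps itself, with 2372 genes above and 2232 below the IL-4 step.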

How the results depend on the processing

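Of 98 called genes among the 110 named ones, 81 kept their call and direction under all 13 alternatives. Leaving out replicate 2 lost 14 of these calls, leaving out replicate 3 lost 11, averaging both lost 10, and 1 (Clec4e) was lost with only the 6 libraries of the step. Scaled to equal totals, Ptgs2 reversed (−0.015).

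A filter at a mean of 50, which leaves fewer genes to test, gave 3938 called genes, 2084 higher and 1854 lower, 1054 and 983 of them at least 2-fold. The divisions then held 204 (fell from above untreated), 711 (fell from near), 68 (fell from below) and 256 (rose from below). With no filter 534 fell from above. Pseudocount 8 gave 147 that fell from below and 407 that rose from below. Median-of-ratios scaling gave 171, and equal totals 605, that fell from below, and equal totals gave 168 that rose from above. With replicates 2 and 3 averaged 3038 genes differed between the LPS and IL-4 steps, and leaving out 1 replicate gave 2751 to 5406. Leaving out 1 replicate gave 4459 to 7027 calls in the LPS step. The cause of these differences was not tested, apart from the smaller number of genes under the stricter filter.

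The fit with a replicate block, which takes the replicate numbers as pairs, gave 7229 calls in the LPS step and 5609 in the comparison with IL-4. Among the named genes it changed the calls of Ier2, Tnf and Ifnb1 and no other.

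In an alternative chosen after seeing the data, the division at 0.5 h came from replicate 1 and the step from the others, and it held 391, 1403 and 312 genes that fell and 306, 841 and 691 that rose (from above, near and below). Depth is unknown and low genes carry counting error that the values do not show. Of the 11 list medians, 127 of 143 values under the alternatives moved by less than the spread between replicates.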
